A study of Homo sapiens with 51 samples.

Results

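The cathepsins are the proteases of the lysosome, and 10 of them were followed here: CTSV, CTSL, CTSB, CTSD, CTSH, CTSS, CTSZ, CTSC, CTSK and CTSA. Their rows were taken by gene symbol from a table of 25421 genes, and all 10 symbols were found. The family was selected on measured values: CTSV had risen with the transcription factor OVOL2 to different extents in 3 pancreatic cancer lines. CTSV in those contrasts is therefore described with its values and given no test. The other 9 members were listed as relatives of CTSV, whatever their values, and are tested.

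Cathepsins are made as inactive precursors, tagged with mannose 6-phosphate in the Golgi, carried to the acidic lysosome and activated there by removal of a propeptide. Most are cysteine proteases (CTSV, CTSL, CTSB, CTSH, CTSS, CTSZ, CTSC and CTSK), while CTSD is an aspartic protease and CTSA a serine carboxypeptidase. Cathepsins degrade proteins delivered by endocytosis and autophagy, and in carcinomas are also released, where they cleave extracellular matrix. The cysteine cathepsins are held in check by cystatins. CTSV is the closest relative of CTSL and is best known from thymus, testis and cornea, whereas CTSL is made in most tissues.

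Gene counts came from PLATE-seq, which barcodes the 3′ ends of cDNA well by well before libraries are pooled. There were 51 libraries in 17 groups of 3, all from established human lines of pancreatic ductal adenocarcinoma (PDA), 5 in number. KP4, PANC1 and PK45H, to which the labels give the name Morphogenic, were sequenced untreated and after transduction with mCherry or OVOL2, each either alone or together with M2rtTA, which makes 5 groups a line. For HPAFII and PATU8988S there were untreated cells alone. OVOL2 is a zinc-finger transcription factor known for keeping epithelial cells epithelial, mCherry is a fluorescent protein that served as control, and M2rtTA is the transactivator that drives tetracycline-inducible promoters when doxycycline is present. Per the labels, the reading frames were delivered by lentivirus at a multiplicity of infection of 2 with 8 µg/ml polybrene, puromycin (2.5 µg/ml) and doxycycline (0.6 µg/ml) were added the next day to both the OVOL2 and the mCherry cells, and 100 ng of RNA was taken after 6 days. Each line is a single established culture, the transduced triplicates are wells of that line, and nothing says how the untreated triplicates were grown, so p-values measure the spread between these libraries, which may be technical.

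Library totals ran from 1165399 counts, in HPAFII replicate 2, to 7490556, with a median of 4771717, and the next lowest was 2439323. Levels are CPM, the counts per 1000000 of the TMM-scaled library total, and each change is given as a log2 fold change, with its SE (standard error), from edgeR's quasi-likelihood test. A gene is called when its Benjamini-Hochberg adjusted p over all genes is under 0.05. Counts were not corrected for how well each transcript is captured, so levels are compared between groups and never between genes. OVOL2 itself was higher with M2rtTA, by 2.15 (SE 0.44, adjusted p = 0.00021) in the mean over the 3 lines, and the change without M2rtTA was −0.09 (adjusted p = 0.926). By line with M2rtTA the change was 3.08 in KP4, where replicate 2 held 62 of the 84 counts of the OVOL2 libraries, and 1.98 in PK45H. In both lines OVOL2 passed the filter on low counts only through the libraries with OVOL2 and M2rtTA. It had to differ there, so these values are descriptions. PANC1 did not pass (1.396, adjusted p = 0.244), and its libraries overlapped. The table does not separate OVOL2 of the vector from that of the cell.

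On GRCh38.p14, CTSV lies on chromosome 9 from 97029677 to 97039643 on the minus strand and CTSL on the same chromosome from 87726119 to 87731469 on the plus strand, 9.3 Mb away. CTSS (150730188 to 150765778) and CTSK (150796208 to 150808260) are neighbours on chromosome 1. CTSD (1752755 to 1763927) and CTSC (88293592 to 88337736) are on chromosome 11, CTSH is on chromosome 15 (78921058 to 78945046), and CTSA (45891335 to 45898820) and CTSZ (58995185 to 59007254) are on chromosome 20.

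The promoters of CTSV and CTSL are printed because the genes are paralogs that moved differently. They are RefSeq sequences of GRCh38.p14 from 250 bases before to 50 after an annotated start: chr9:97039093-97039392 on the minus strand for CTSV and chr9:87725869-87726168 on the plus strand for CTSL. The CTSV start used lies inside the gene, whose 5′ end at 97039643 is outside the printed window. What follows on the CTSV promoter holds for that start alone, and no other was examined. Capitals mark the longest stretch the promoters share, 23 bases that begin 86 bases before the CTSV start and 96 bases before the CTSL start.
CTSV promoter: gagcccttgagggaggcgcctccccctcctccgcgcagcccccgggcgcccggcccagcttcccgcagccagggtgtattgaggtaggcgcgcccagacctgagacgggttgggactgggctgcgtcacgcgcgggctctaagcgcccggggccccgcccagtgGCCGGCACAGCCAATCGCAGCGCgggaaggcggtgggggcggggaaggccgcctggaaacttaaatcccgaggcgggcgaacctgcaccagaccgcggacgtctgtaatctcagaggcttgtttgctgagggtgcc
CTSL promoter: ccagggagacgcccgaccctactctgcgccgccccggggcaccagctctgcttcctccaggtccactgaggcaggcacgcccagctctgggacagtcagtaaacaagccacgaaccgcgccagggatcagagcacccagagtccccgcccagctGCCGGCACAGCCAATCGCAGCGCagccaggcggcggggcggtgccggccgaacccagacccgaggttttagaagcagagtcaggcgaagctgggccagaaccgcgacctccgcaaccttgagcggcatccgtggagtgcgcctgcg
The shared stretch holds CCAAT, the core of the CCAAT box, a motif found in 34.6% of the 35116 RefSeq promoters of that length on either strand. Over the whole 300 bases, 206 of 315 aligned positions were identical (65.4%). The letters CCGTTA, a core bound by OVO proteins, were in 0 of the 7 members with a promoter in the table (CTSL, CTSV, CTSD, CTSC, CTSH, CTSA and CTSZ), and in 3.07% of all promoters. TATAAA was in 0 of the 7 and in 11.5% of all. The shares of all promoters are over every entry, whereas a member is counted by its first entry alone.

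The coding sequences of the paralogs are alike enough for reads to be shared: 834 of 1002 aligned positions were identical (83.2%). Their longest shared stretch, 40 bases, is in capitals below within coding positions 400 to 499, counted from the A of the start codon, in the GENCODE v29 transcripts CTSV-201 and CTSL-203. These 100 bases differ at 5 positions.
CTSV coding: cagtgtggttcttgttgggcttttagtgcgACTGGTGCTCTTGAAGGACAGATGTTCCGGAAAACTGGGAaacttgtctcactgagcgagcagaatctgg
CTSL coding: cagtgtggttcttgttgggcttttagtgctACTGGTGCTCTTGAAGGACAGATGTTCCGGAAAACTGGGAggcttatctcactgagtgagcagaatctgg
Of the 31-base words that the transcripts of each gene contain, 4697 for CTSV and 2439 for CTSL, 17 were in both. All 17 lay in the coding part, the nearest 683 bases from the 3′ end of CTSV-201 and 674 from that of CTSL-203, and PLATE-seq reads come from 3′ ends. The CTSL pseudogene CTSLP2 had 913 counts over all libraries, at most 34 in one, and CTSL3P had 14. Counts of reads that match both genes cannot be assigned from this table.

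CTSV, a cysteine endopeptidase of the lysosome, was higher in every OVOL2 library than in any matched mCherry library, in all 3 lines and in both arms. In PANC1 with M2rtTA, CTSV stood at 7.78, 7.98 and 6.82 CPM with mCherry and at 171, 216 and 198 CPM with OVOL2. The log2 fold change there was 4.69 (SE 0.18), a 25.7-fold difference. In KP4 with M2rtTA, the mCherry libraries had 22.5, 25.5 and 21.6 CPM and the OVOL2 libraries 177, 211 and 200 CPM. This was a change of 3.09 (SE 0.18), or 8.5-fold. KP4 and PANC1 thus reached like levels, 196 ± 17.6 and 195 ± 22.4 CPM (SD, n = 3), from mCherry means of 23.2 ± 2.03 and 7.53 ± 0.621 CPM. PK45H stayed far below both: 6.08, 8.81 and 4.27 CPM with mCherry and 19.0, 13.0 and 9.72 CPM with OVOL2, a change of 1.19 (SE 0.31). The lowest OVOL2 library of PK45H lay just above its highest mCherry library, and these 6 libraries held 29 to 95 CTSV counts each.

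Without M2rtTA every CTSV change was smaller, with KP4 and PANC1 close to each other and PK45H the smallest. KP4 had 27.7, 20.1 and 19.2 CPM with mCherry and 95.7, 82.7 and 84.1 CPM with OVOL2, a change of 1.97 (SE 0.17). PANC1 had 11.5, 9.73 and 8.96 CPM with mCherry and 35.5, 44.1 and 36.4 CPM with OVOL2, a change of 1.93 (SE 0.17). In PK45H, CTSV was at 4.89, 4.95 and 7.77 CPM with mCherry and at 10.6, 9.33 and 11.1 CPM with OVOL2, a change of 0.73 (SE 0.32). The mean change over the lines was 1.56 (SE 0.13) without M2rtTA and 2.99 (SE 0.13) with it, and the difference of these means was 1.43 (SE 0.18). These values chose the family and carry no test. In bulk RNA, more cells that make CTSV and more CTSV per cell cannot be told apart, here and in what follows.

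**Figure D1:**
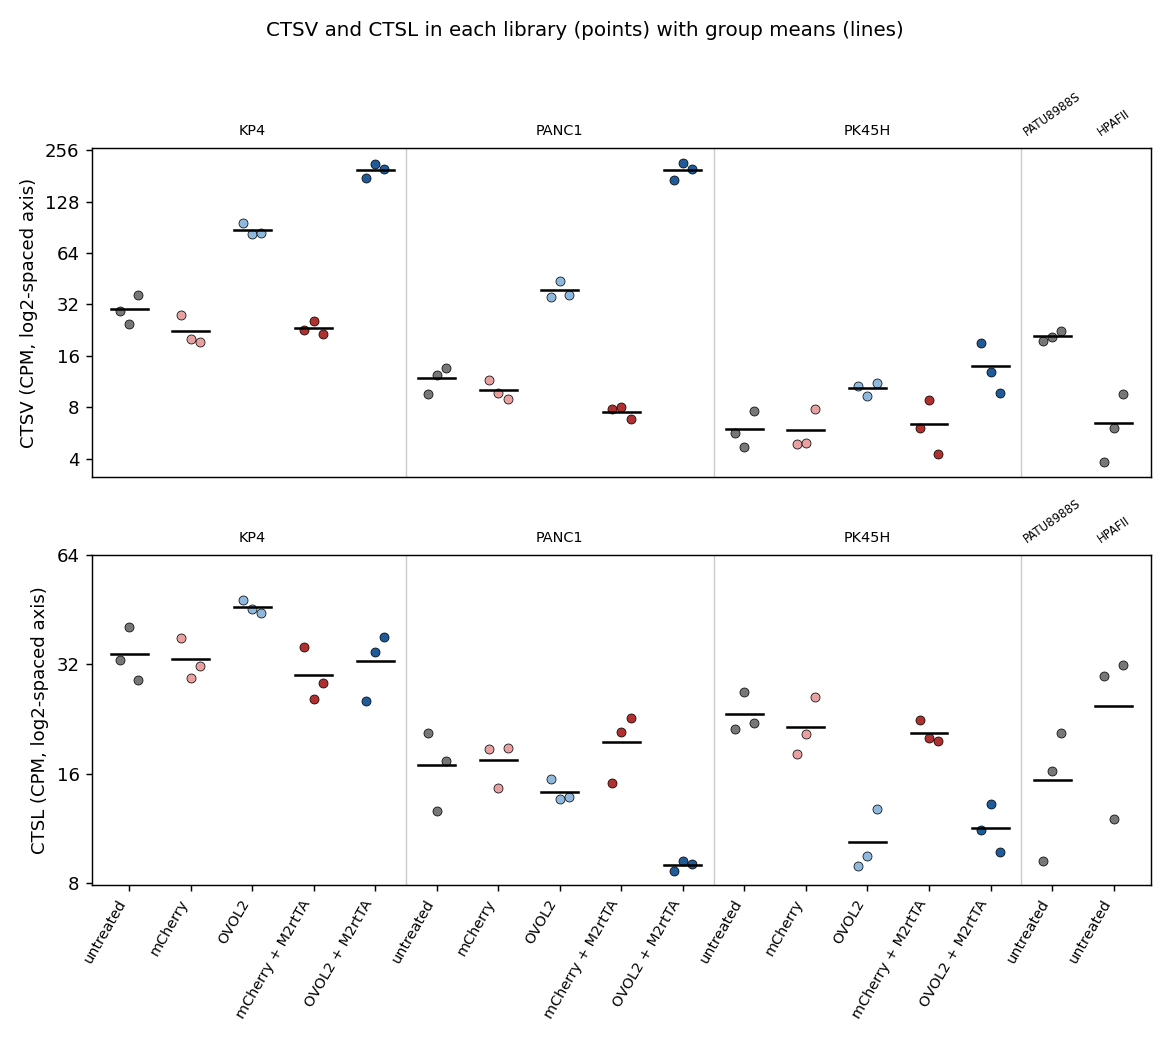
CTSV (top) and CTSL (bottom) in CPM on a log2-spaced axis, 1 point per library and a line at the mean of each of the 17 groups of 3. In PANC1 with M2rtTA the OVOL2 libraries reach 171 to 216 CPM for CTSV while CTSL falls to 8.64 to 9.22 CPM.

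CTSL, the paralog, did not follow CTSV. It fell with OVOL2 in PANC1 with M2rtTA and in PK45H in both arms, and passed the test in neither arm of KP4. In PANC1 with M2rtTA, CTSL was at 15.1, 20.8 and 22.7 CPM with mCherry and at 8.64, 9.22 and 9.03 CPM with OVOL2, so the OVOL2 libraries were all lower. It fell by 1.13 (SE 0.21, adjusted p = 0.00232). PK45H with M2rtTA had 22.5, 20.1 and 19.8 CPM with mCherry and 11.2, 13.2 and 9.72 CPM with OVOL2, a change of −0.81 (SE 0.19, adjusted p = 0.00966). In KP4 with M2rtTA the libraries overlapped, at 35.8, 25.7 and 28.5 CPM with mCherry and 25.4, 34.7 and 38.0 CPM with OVOL2 (change 0.13, adjusted p = 0.66).

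The arm without M2rtTA gave a wider spread of CTSL between lines. In PK45H, CTSL went from 18.1, 20.6 and 26.1 CPM with mCherry to 8.90, 9.51 and 12.8 CPM with OVOL2, and it fell by 1.12 (SE 0.19, adjusted p = 0.0021). PANC1 had 18.8, 14.7 and 18.8 CPM against 15.4, 13.6 and 13.8 CPM, groups that overlapped (change −0.29, adjusted p = 0.482). KP4 had 37.9, 29.4 and 31.8 CPM against 48.3, 45.4 and 44.3 CPM, where the OVOL2 libraries were all higher but the change of 0.47 did not pass (adjusted p = 0.139). The CTSL effect differed between the 3 lines in the test of that difference, with 2 degrees of freedom, both with M2rtTA (adjusted p = 0.00578) and without it (adjusted p = 0.00157). The mean over lines was −0.61 (SE 0.11, adjusted p = 4.13e-05) with M2rtTA and −0.30 (SE 0.11, adjusted p = 0.0556) without it. The mean without M2rtTA passed when any of 4 libraries was left out: PANC1 OVOL2 replicate 1 (−0.33, adjusted p = 0.0477), PANC1 mCherry replicate 2 (−0.34, adjusted p = 0.0312), PK45H OVOL2 replicate 3 (−0.37, adjusted p = 0.0209) or PK45H mCherry replicate 1 (−0.34, adjusted p = 0.0361). It passed as well with a filter of a mean count of at least 10 (−0.31, adjusted p = 0.0349).

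The ratio of CTSV to CTSL counts within a library needs no scaling between libraries, so it shows the divergence of the paralogs directly. On the log2 scale, with 0.5 added to each count, the ratio in PANC1 with M2rtTA was −1.35 ± 0.388 with mCherry and 4.42 ± 0.124 with OVOL2 (SD, n = 3), a shift of 5.77. KP4 with M2rtTA shifted by 2.96, from −0.36 ± 0.327 to 2.60 ± 0.202. The PK45H shift with M2rtTA was 1.99, from −1.75 ± 0.517 to 0.24 ± 0.445. In KP4 the shift was close to the change of CTSV alone, whereas in PANC1 and PK45H the fall of CTSL added to it. Without M2rtTA the shifts were 1.499 in KP4, 2.21 in PANC1 and 1.88 in PK45H. The level ratio is not a ratio of molecules, since capture of the 2 transcripts was not corrected.

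**Figure D2:**
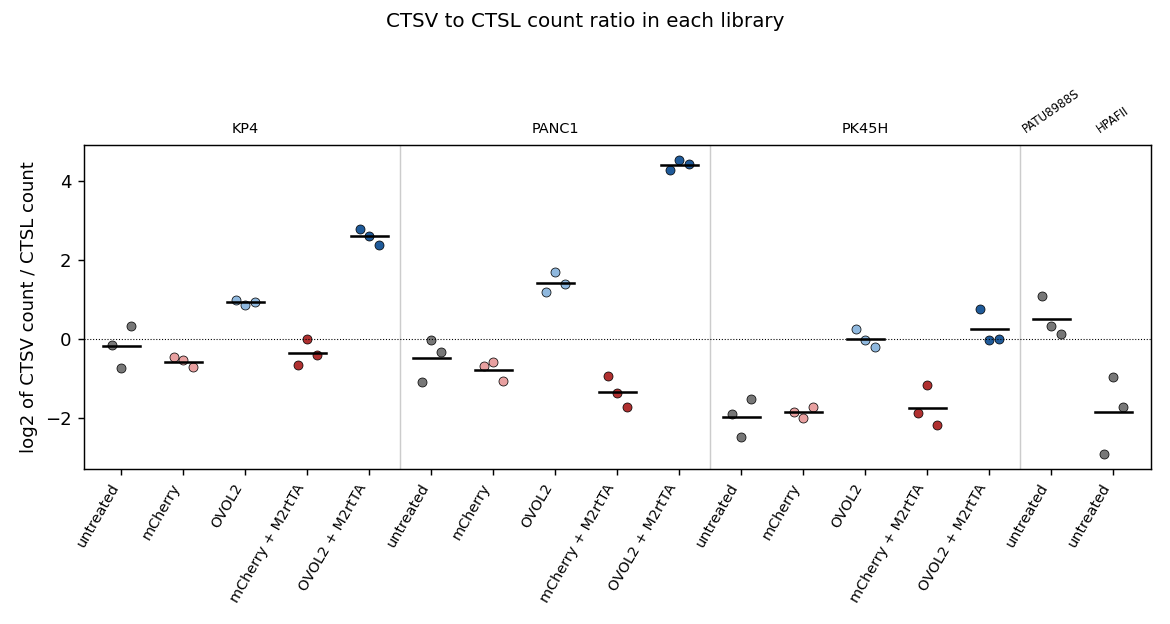
Log2 ratio of CTSV to CTSL counts (0.5 added to each) in every library, with group means as lines and equal counts as a dotted line. The PANC1 libraries with OVOL2 and M2rtTA stand highest, between 4.29 and 4.54, while untreated, mCherry and mCherry with M2rtTA libraries of the 3 transduced lines lie between −2.50 and 0.33.

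CTSA and CTSD, which belong to other protease classes than CTSV, rose with OVOL2 over the 3 lines. CTSA is the carboxypeptidase that also stabilises lysosomal neuraminidase and beta-galactosidase in one complex. In KP4 with M2rtTA, CTSA was at 10.8, 14.6 and 10.4 CPM with mCherry and 28.8, 25.0 and 23.4 CPM with OVOL2, and it rose by 1.12 (SE 0.24, adjusted p = 0.00344). PANC1 had 16.2, 11.9 and 16.1 CPM against 30.7, 31.3 and 32.9 CPM, a rise of 1.10 (SE 0.17, adjusted p = 0.000606). In both lines the groups were well apart. PK45H had 16.3, 17.1 and 25.2 CPM against 29.8, 29.5 and 23.6 CPM, which overlapped through mCherry with M2rtTA replicate 3. The PK45H change was 0.56 (adjusted p = 0.0703), and 0.78 (adjusted p = 0.023) without that library. The mean over lines was 0.92 (SE 0.12, adjusted p = 1.32e-07) with M2rtTA and 0.67 (SE 0.12, adjusted p = 7.72e-05) without it, and the test of a difference between lines gave an adjusted p of 0.333 with M2rtTA and 0.944 without it.

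CTSA also stood higher in every OVOL2 library than in the mCherry libraries of the arm without M2rtTA, although no line passed alone. KP4 went from 14.2, 13.2 and 10.1 CPM to 23.0, 19.9 and 21.0 CPM (0.76, adjusted p = 0.0663), PANC1 from 13.4, 12 and 13.9 CPM to 19.0, 16.2 and 22.9 CPM (0.56, adjusted p = 0.0782), and PK45H from 15.9, 16 and 20.3 CPM to 29.3, 27.8 and 29.01 CPM (0.65, adjusted p = 0.0627). The KP4 value passed in 4 other settings, among them DESeq2 (adjusted p = 0.0358) and a single fit of all libraries (adjusted p = 0.0346).

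CTSD, the aspartic endopeptidase that is among the most abundant lysosomal enzymes, rose in all 3 lines with M2rtTA. KP4 had 18.6, 19.7 and 9.05 CPM with mCherry and 29.4, 30.01 and 27.7 CPM with OVOL2 (0.90, SE 0.22, adjusted p = 0.0088). PANC1 had 46.4, 53.2 and 57.5 CPM against 62.1, 111 and 84.4 CPM (0.70, SE 0.19, adjusted p = 0.0238). In PK45H the values were 59.2, 57.0 and 58.2 CPM against 136, 110.2 and 93.0 CPM (1.02, SE 0.17, adjusted p = 0.000967). The OVOL2 libraries were higher throughout, and spread most in PANC1. That PANC1 call was lost without any of 4 libraries, OVOL2 with M2rtTA replicates 2 (adjusted p = 0.115) and 3 (0.0551) and mCherry with M2rtTA replicates 1 (0.0907) and 2 (0.0636), and both it and the KP4 call were lost in a fit of only the groups compared (adjusted p = 0.0709 and 0.0594).

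Without M2rtTA, CTSD rose in KP4, from 15.3, 16.2 and 12.1 CPM to 28.1, 23.9 and 28.0 CPM (0.86, SE 0.22, adjusted p = 0.0297), and in PK45H, from 47.4, 59.8 and 62.4 CPM to 85.1, 113 and 101 CPM (0.75, SE 0.17, adjusted p = 0.0123). PANC1 overlapped, at 48.4, 55.3 and 55.0 CPM against 48.8, 62.9 and 69.0 CPM (0.18, adjusted p = 0.687). Leaving out any one of the 6 KP4 libraries compared ended the KP4 call (adjusted p from 0.0518 to 0.116), and leaving out PK45H OVOL2 replicate 2 (0.0553) or mCherry replicate 1 (0.0593) ended that of PK45H. The CTSD mean over lines was 0.87 (SE 0.12, adjusted p = 2.25e-07) with M2rtTA and 0.61 (SE 0.12, adjusted p = 0.000167) without it.

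The promoters of CTSA and CTSD are printed because they are the only ones of the 7 with a promoter in the table that hold CACGTG. This is the palindromic E-box that transcription factors of the MiT/TFE family are known to bind at lysosomal genes. Both members were called higher in the mean over lines in each arm. CTSV rose more, and CTSH was called higher in that mean with M2rtTA (0.73, adjusted p = 0.000323), yet the promoters of CTSV and CTSH lack these letters. They are RefSeq sequences of GRCh38.p14, chr20:45891085-45891384 on the plus strand for CTSA and chr11:1763878-1764177 on the minus strand for CTSD, with CACGTG in capitals.
CTSA promoter: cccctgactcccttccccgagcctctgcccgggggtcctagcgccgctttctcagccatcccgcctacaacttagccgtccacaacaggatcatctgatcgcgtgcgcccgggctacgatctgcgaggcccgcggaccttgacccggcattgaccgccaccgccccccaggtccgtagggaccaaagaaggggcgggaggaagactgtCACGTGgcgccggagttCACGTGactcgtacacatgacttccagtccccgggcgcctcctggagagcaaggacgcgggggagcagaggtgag
CTSD promoter: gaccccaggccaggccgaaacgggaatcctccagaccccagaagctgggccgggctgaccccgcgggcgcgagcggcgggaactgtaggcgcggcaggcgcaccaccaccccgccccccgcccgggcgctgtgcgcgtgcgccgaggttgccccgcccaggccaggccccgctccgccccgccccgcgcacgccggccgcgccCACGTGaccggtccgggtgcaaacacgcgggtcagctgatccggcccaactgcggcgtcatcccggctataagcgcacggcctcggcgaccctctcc
CTSA has 2 matches, 42 and 25 bases before the start, and CTSD has 1, at 47 bases before it. The letters were in 7.26% of all 35116 promoters, a share over every entry, whereas members and lists are counted by the first entry of each symbol. Among the lysosomal genes listed further on, they were in 7 of 19 promoters of membrane and proton pump genes (36.8%), in 4 of 19 of hydrolase genes (21.1%), in 4 of 8 of other lysosomal proteases and in 3 of 9 of sorting genes (33.3%). They were in 0 of 5 promoters of cystatins and other inhibitors, 0 of 4 of MiT/TFE factors and 0 of 8 of the MHC class II list. A match is only a run of letters, and no binding was measured.

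**Figure D3:**
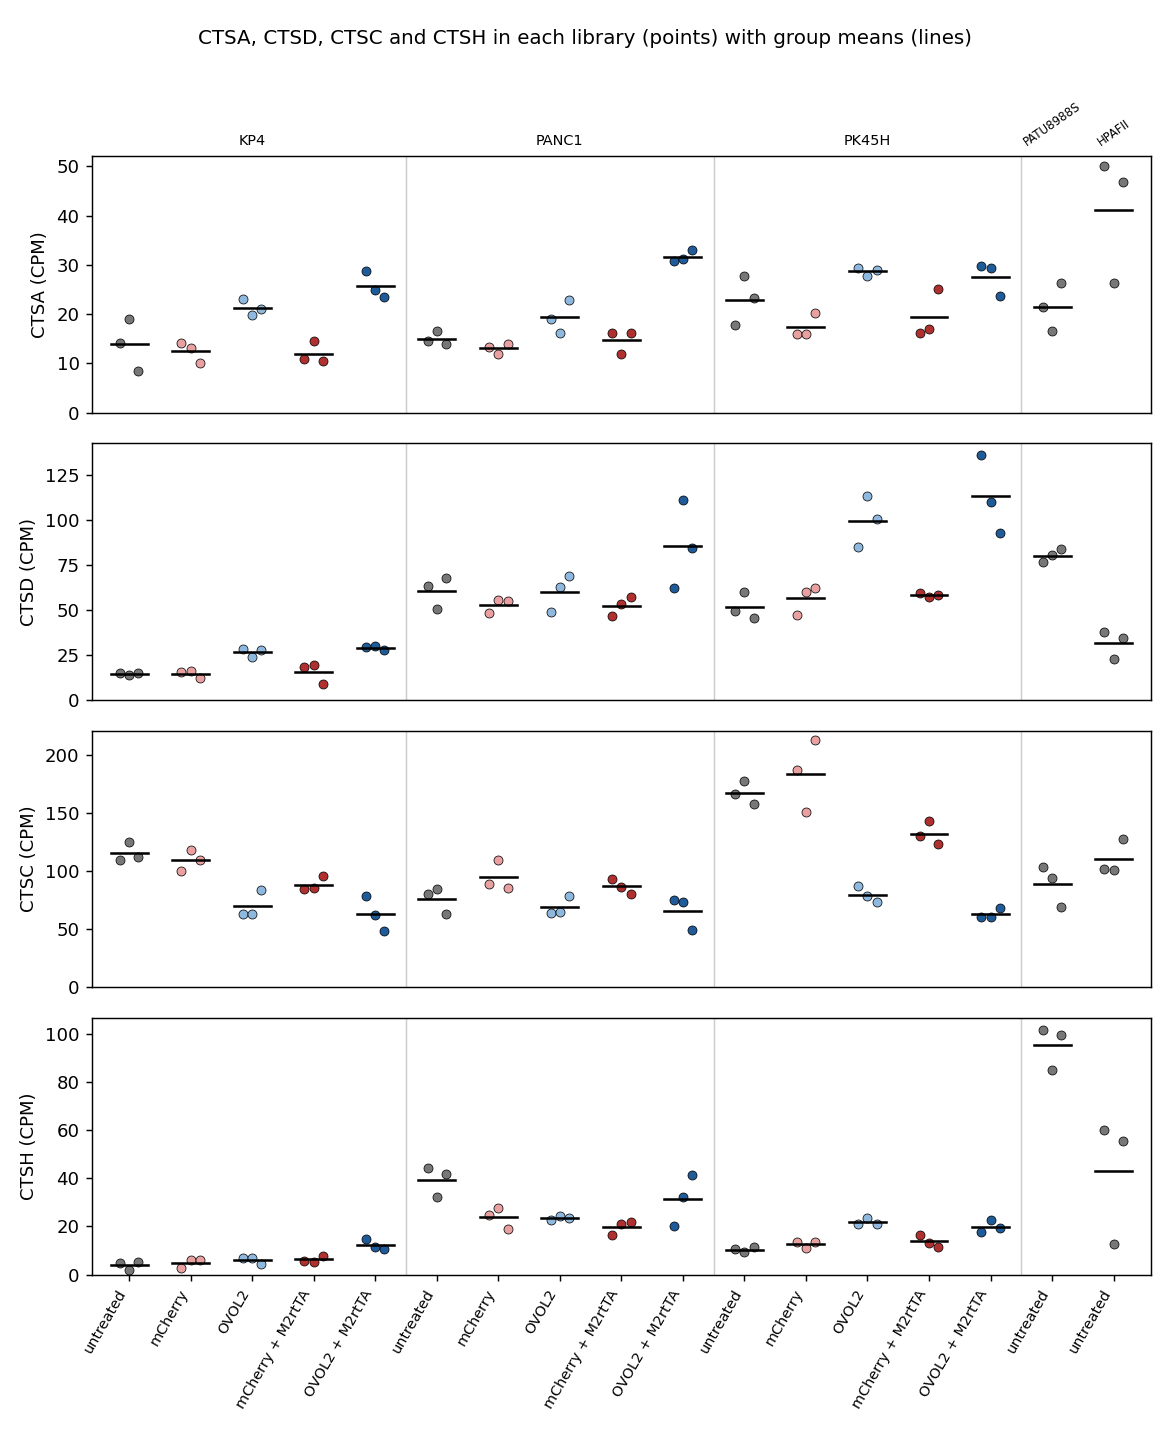
CTSA, CTSD, CTSC and CTSH in CPM on linear axes from 0, 1 point per library with group means as lines. CTSA and CTSD lie higher with OVOL2 than with mCherry in most pairs of groups, and CTSC lies lower, furthest in PK45H (63.3 against 132 CPM with M2rtTA).

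CTSC, the dipeptidyl peptidase that activates serine proteases of immune cells, fell with OVOL2, most in PK45H. In PK45H, CTSC was at 130.2, 143 and 124 CPM with mCherry and M2rtTA and at 60.4, 60.7 and 68.7 CPM with OVOL2 and M2rtTA, a fall of 2.01-fold (log2 change −1.004, SE 0.14, adjusted p = 0.000253). Without M2rtTA it went from 187, 152 and 213 CPM to 87.0, 78.6 and 73.6 CPM (−1.27, SE 0.14, adjusted p = 5.44e-05). The OVOL2 libraries of PK45H lay far below their controls in both arms. KP4 without M2rtTA went from 100.1, 119 and 110.2 CPM to 63.6, 63.6 and 83.5 CPM (−0.65, SE 0.17, adjusted p = 0.0359). With M2rtTA, KP4 had 84.6, 85.5 and 95.7 CPM against 78.6, 62.0 and 48.9 CPM (−0.48, adjusted p = 0.0578).

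In PANC1 the CTSC changes were −0.40 with M2rtTA (adjusted p = 0.176) and −0.47 without it (adjusted p = 0.168), and each OVOL2 library was below every mCherry library there too. The mean over lines was −0.63 (SE 0.09, adjusted p = 1.42e-06) with M2rtTA and −0.78 (SE 0.09, adjusted p = 7.41e-08) without it. The test of a difference between lines gave adjusted p of 0.139 and 0.0894 for CTSC. The KP4 call without M2rtTA was lost without OVOL2 replicate 1 (adjusted p = 0.127) or 2 (0.127) or mCherry replicate 2 (0.116) or 3 (0.0962), with no filter (0.0651) and in a fit of only the groups compared (0.0755), while KP4 with M2rtTA passed without its OVOL2 replicate 1 (−0.67, adjusted p = 0.0161) and in a single fit of all libraries (0.0366).

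CTSH, an aminopeptidase, rose with M2rtTA in the mean over lines, by 0.73 (SE 0.16, adjusted p = 0.000323). Its values with M2rtTA went from 5.74, 5.30 and 7.89 CPM to 14.6, 11.7 and 10.6 CPM in KP4 (0.96, SE 0.38, adjusted p = 0.0842). PANC1 had 16.7, 21.0 and 21.7 CPM against 20.2, 32.3 and 41.5 CPM (0.65, SE 0.23, adjusted p = 0.0716). PK45H had 16.4, 13.3 and 11.6 CPM against 17.6, 22.6 and 19.2 CPM and was the line that passed (0.58, SE 0.17, adjusted p = 0.0291). Only PANC1 overlapped, through OVOL2 with M2rtTA replicate 1, and without that library PANC1 passed (0.87, adjusted p = 0.0144).

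Without M2rtTA, CTSH rose in PK45H, from 13.7, 11.04 and 13.7 CPM to 20.9, 23.7 and 21.0 CPM (0.70, SE 0.17, adjusted p = 0.0208). KP4 (0.34, adjusted p = 0.71) and PANC1 (−0.03, adjusted p = 0.966) overlapped, and the mean over lines was 0.36 (adjusted p = 0.123). The PK45H calls rested on single libraries: with M2rtTA the call was lost without OVOL2 replicate 2 (adjusted p = 0.122) or 3 (0.0536) or mCherry replicate 2 (0.0904) or 3 (0.121), and without M2rtTA it was lost without any OVOL2 library (0.0531 to 0.0757) or mCherry replicate 2 (0.0685). Neither PK45H value passed in a single fit of all libraries (adjusted p = 0.248 and 0.18) or in a fit of only the groups compared (0.0921 and 0.0608), nor did the one with M2rtTA with no filter (0.101). KP4 with M2rtTA passed in both of those fits (0.0416 and 0.0372).

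CTSB, a broad endopeptidase and exopeptidase, had the most even level of the family, with a highest group mean 2.16 times its lowest. Averaged over lines, CTSB changed by 0.04 (SE 0.07, adjusted p = 0.7) with M2rtTA and −0.12 (SE 0.07, adjusted p = 0.274) without it. The lowest single value was −0.35 in PK45H without M2rtTA (adjusted p = 0.112), where the OVOL2 libraries, at 140.2, 122 and 125 CPM, were all below the mCherry libraries at 155, 149.7 and 165 CPM.

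CTSS, the endopeptidase that trims the invariant chain of MHC class II in antigen-presenting cells, was low, at 1.99 to 20.1 CPM. Its mean change was 0.02 (SE 0.16, adjusted p = 0.945) with M2rtTA and 0.22 (SE 0.17, adjusted p = 0.403) without it. With M2rtTA the lines went different ways: KP4 had 7.07, 4.54 and 7.89 CPM with mCherry and 3.49, 4.502 and 3.28 CPM with OVOL2 (−0.79, adjusted p = 0.102). PANC1 had 3.11, 4.67 and 2.27 CPM against 5.76, 5.74 and 5.85 CPM (0.77, adjusted p = 0.151), and PK45H was at 0.08 (adjusted p = 0.854). The test of the difference between lines gave an adjusted p of 0.0442. That call was lost when any one of the 18 libraries compared was left out except KP4 or PANC1 mCherry with M2rtTA replicate 2, with adjusted p from 0.0526 to 0.13 where it was lost.

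CTSZ, a carboxypeptidase, and CTSK, the collagenase of osteoclasts, were near the limit of detection. CTSZ had at most 31 counts in a library and changed by −0.06 (adjusted p = 0.906) with M2rtTA and −0.37 (adjusted p = 0.41) without it, over the lines. CTSK had 3 counts or fewer in 25 libraries and 0 in 5, with at most 23. Its mean change was 1.25 (SE 0.52, adjusted p = 0.0617) with M2rtTA and 0.85 (SE 0.48, adjusted p = 0.242) without it, and the filter on low counts left it untested in KP4 and PK45H alone. The first CTSK value passed without PANC1 OVOL2 with M2rtTA replicate 3 (1.39, adjusted p = 0.0397) or PANC1 mCherry with M2rtTA replicate 1 (1.55, adjusted p = 0.0456) and in DESeq2 (adjusted p = 0.0414), and the second without PANC1 mCherry replicate 2 (1.94, adjusted p = 0.0063). The low counts limit the precision of both genes.

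Counted over the 9 members other than CTSV, 5 were called in the mean over lines with M2rtTA, where 32.9% of all genes tested were: CTSA, CTSD and CTSH higher, CTSL and CTSC lower. Without M2rtTA, 3 were called (CTSA and CTSD higher, CTSC lower), against 18.1% of all genes. Each of these calls held in all the alternatives that were run, and DESeq2 added CTSK with M2rtTA. By line with M2rtTA, 2 of 8 tested members were called in KP4 (22.4% of all genes), 3 of 9 in PANC1 (13.9%) and 4 of 8 in PK45H (15.9%). The arm without M2rtTA gave 2 of 8 in KP4 (6.82%), 0 of 9 in PANC1 (5.08%) and 4 of 8 in PK45H (8.39%). In PANC1 without M2rtTA, CTSC and CTSA were at an unadjusted p under 0.05 and DESeq2 also called 0.

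The OVOL2 effect differed between lines for 2 of the 9 with M2rtTA, CTSL and CTSS, where 7.56% of all genes did, and for CTSL alone without it, where 2.74% did. The change of the mean effect that came with M2rtTA was called for 0 of the 9 by edgeR, with 0 at an unadjusted p under 0.05 and 0 in DESeq2, against 7.72% of all genes. Its values ranged from −0.31 (CTSL) to 0.41 (CTSK).

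**Figure D4:**
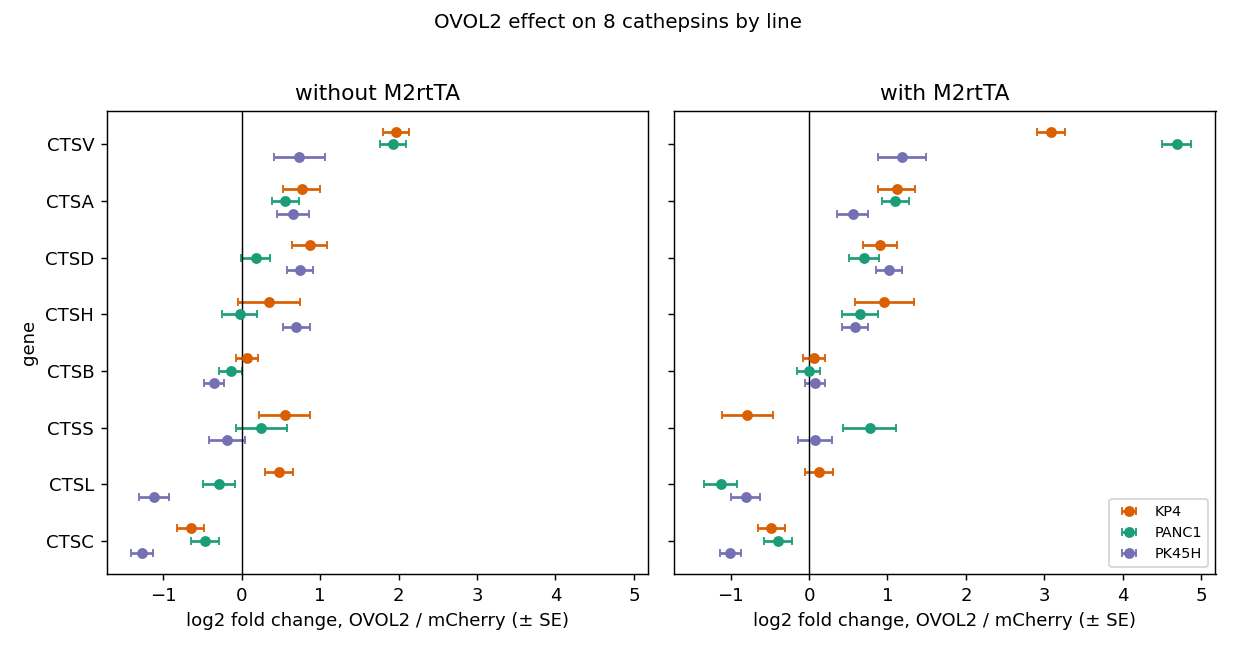
Log2 fold change of OVOL2 over mCherry with its SE for 8 cathepsins in KP4, PANC1 and PK45H, without M2rtTA (left) and with it (right). CTSV lies furthest to the right with M2rtTA, at 4.69 in PANC1, CTSA and CTSD lie right of 0 in each line and arm, and CTSC lies left of 0 in each; CTSK and CTSZ are left out for their low counts.

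Transduction and M2rtTA were also compared without OVOL2. The labels give virus, polybrene, puromycin and doxycycline for the mCherry cells and none of them for untreated cells. Their effects cannot be told apart in that comparison. The mCherry libraries entered the choice of CTSV, so its values here are again a description. Between mCherry and untreated cells edgeR called 0 of 8 other members tested in KP4 (0% of all genes), 0 of 9 in PANC1 (0.598%) and 0 of 8 in PK45H (0.00736%). At an unadjusted p under 0.05 there was CTSH in PANC1 and none in the other lines, and DESeq2 called none. The CTSV changes were −0.42 (SE 0.17) in KP4, −0.24 (SE 0.17) in PANC1 and 0.03 (SE 0.33) in PK45H. CTSL changed by −0.04, 0.04 and −0.06 in the same order (adjusted p = 0.994, 0.979 and 0.978).

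With M2rtTA added to mCherry, edgeR called 0 of 8 other members in KP4 (0%), 0 of 9 in PANC1 (0%) and 0 of 8 in PK45H (0.0294% of all genes). CTSS in KP4 and CTSC in PK45H were at an unadjusted p under 0.05, and DESeq2 called CTSC in PK45H alone. CTSC went there from 187, 152 and 213 CPM to 130.2, 143 and 124 CPM, groups that did not overlap (log2 change −0.52, SE 0.13, adjusted p = 0.275 in edgeR). The CTSV changes were 0.08 in KP4, −0.42 in PANC1 and 0.06 in PK45H.

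Among the untreated lines, 8 of the 9 members tested differed between the 5 lines (4 degrees of freedom), where 57.8% of all genes did. CTSV was highest in KP4, at 29.3, 24.5 and 36.5 CPM, then in PATU8988S at 19.7, 20.6 and 22.5 CPM and PANC1 at 9.57, 12.4 and 13.6 CPM (adjusted p = 1.82e-05). HPAFII (3.80, 6.02 and 9.59 CPM) and PK45H (5.63, 4.69 and 7.60 CPM) were lowest and overlapped, and HPAFII also overlapped PANC1. The order of CTSV in untreated cells, KP4 over PANC1 over PK45H, was not that of its log2 change with OVOL2 and M2rtTA, PANC1 over KP4 over PK45H. CTSL ran from 34.2 ± 5.88 CPM in KP4 to 15.4 ± 5.79 CPM in PATU8988S, with most neighbours overlapping. Its adjusted p of 0.036 rose above 0.05 without KP4 replicate 1 (0.065) or 2 (0.108), PANC1 replicate 2 (0.0598) or 3 (0.0589), or PATU8988S replicate 1 (0.063) or 2 (0.0685).

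HPAFII and PATU8988S were set against the mean of KP4, PANC1 and PK45H, and 5 of 9 members were called higher in the former and 0 lower. Of all 13785 genes tested, 2397 were higher and 2397 lower, together 34.8%. CTSH differed most, at 95.5 ± 9.13 CPM in PATU8988S and 42.9 ± 26.2 CPM in HPAFII against 39.5 ± 6.41 CPM in PANC1, 10.4 ± 1.08 in PK45H and 3.99 ± 1.96 in KP4 (2.49, SE 0.27, adjusted p = 4.14e-06). CTSS was higher by 1.07 (SE 0.19, adjusted p = 0.00052), CTSA by 0.86 (SE 0.19, adjusted p = 0.00207), CTSB by 0.58 (SE 0.12, adjusted p = 0.00148) and CTSD by 0.54 (SE 0.12, adjusted p = 0.00295). The lines within a side differed as well: CTSS was at 16.2 ± 3.43 CPM in PK45H, above HPAFII at 12.5 ± 4.25 CPM, and CTSD was at 31.5 ± 7.95 CPM in HPAFII, below PANC1 at 60.7 ± 8.999 CPM. CTSV (−0.10, adjusted p = 0.731), CTSL (−0.23, adjusted p = 0.417) and CTSC (−0.16, adjusted p = 0.313) did not pass. Without HPAFII replicate 2, the shallowest library, CTSH stood at 2.68 (adjusted p = 5.39e-08), and CTSZ, which had 0 counts in it, passed (0.89, adjusted p = 0.0169, from 0.71 and 0.152 with it).

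Other genes of the pathway were followed as lists, which were chosen with earlier results of these data known. The lysosomal hydrolases and their activators had 29 of 30 genes tested in the mean over lines with M2rtTA: 18 were higher, 3 lower, and the median change was 0.49, beside 0.03 over all genes, of which 2343 were called higher and 2580 lower of 14943. NEU1, the neuraminidase that forms a complex with CTSA, rose by 1.47 (SE 0.10, adjusted p = 5.22e-14), and passed in each line in both arms. FUCA1, a fucosidase, rose by 1.12 (SE 0.17, adjusted p = 1.85e-06), most in PK45H (2.16), the only line that passed with M2rtTA. ACP2, an acid phosphatase, went the other way, at −1.56 (SE 0.28, adjusted p = 3.07e-05). With M2rtTA it passed in PANC1 alone (−2.615, adjusted p = 0.0046), where it went from 4.18 to 0.65 CPM. Without M2rtTA, 12 hydrolases were higher and 1 lower, with a median of 0.28 beside 0.00 over all genes.

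The lysosome membrane and proton pump list had all 25 genes tested, with 19 higher and 0 lower with M2rtTA (median 0.58) and 15 higher and 0 lower without it (median 0.39). Of all 14943 genes, 2343 were higher with M2rtTA and 1393 without it. CLCN7, a chloride-proton exchanger, rose by 1.31 (SE 0.28, adjusted p = 0.000369), NPC1, which exports cholesterol from the lysosome, by 0.88 (SE 0.14, adjusted p = 3.26e-06), and MCOLN1, a calcium channel, by 0.76 (SE 0.23, adjusted p = 0.00901). By line with M2rtTA, CLCN7 passed in KP4 alone (2.01, adjusted p = 0.00754), and NPC1 in KP4 (0.00136) and PANC1 (0.0315). MCOLN1 passed in none (adjusted p from 0.158 to 0.359). CLCN7 and MCOLN1 were low, with group means there of 1.28 to 8.25 and 2.01 to 5.96 CPM. The rises were modest: apart from CLCN7 no gene of the list changed by more than NPC1. Genes of mannose 6-phosphate and sortilin sorting were higher for 6 of 10 with M2rtTA (median 0.33) and 2 of 10 without it (median 0.13), led by GNPTG, a subunit of the enzyme that adds the tag (0.79, SE 0.14, adjusted p = 1.56e-05). By line with M2rtTA, 4 of 10 were called in KP4, GNPTG among them (adjusted p = 0.00161), and 0 in PANC1 and PK45H. NAGPA (0.41, adjusted p = 0.0395) and GGA3 (0.49, adjusted p = 0.0476) were among the 6. The GGA3 call was lost when any of 14 of the 18 libraries compared was left out, with no filter (0.0787) and in 1 fit of all libraries (0.067), and that of NAGPA with any of 11 of the 18 left out and with no filter (0.0646). Their number fell to 3 with no filter and when any of these was left out: KP4 OVOL2 with M2rtTA replicate 1 or 3, PANC1 OVOL2 with M2rtTA replicate 3, PANC1 mCherry with M2rtTA replicate 2 or 3, PK45H OVOL2 with M2rtTA replicate 2, or PK45H mCherry with M2rtTA replicate 2 or 3. The 2 without M2rtTA became 1 or 0 when any library compared was left out except KP4 OVOL2 replicate 1, PANC1 OVOL2 replicate 1, PK45H OVOL2 replicate 3 and PK45H mCherry replicate 1.

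Of 11 other lysosomal proteases, 8 were tested and 4 were called with M2rtTA, all higher, where 32.9% of all genes were called. They were LGMN, the asparaginyl endopeptidase that processes several cathepsins (0.98, SE 0.25, adjusted p = 0.0027), TPP1 (0.86, SE 0.07, adjusted p = 2.39e-12), DPP7 (0.82, SE 0.14, adjusted p = 2.2e-05) and CTSF. By line with M2rtTA, LGMN and TPP1 passed in KP4 and PK45H and DPP7 in KP4 alone (1.705, adjusted p = 0.000739). In PANC1, 0 of 6 tested proteases were called in either arm. In the mean over lines, TPP1 was the one called without M2rtTA (0.56), where 18.1% of all genes were. Of the MiT/TFE transcription factors 3 of 4 were tested in the mean over lines, and 0 were called in either arm. With M2rtTA it was 1 when PANC1 mCherry with M2rtTA replicate 2 was left out. In that mean with M2rtTA, TFEB was at 0.92 (SE 0.42, adjusted p = 0.0946), MITF at 0.41 (SE 0.19, adjusted p = 0.104) and TFE3 at 0.05 (SE 0.09, adjusted p = 0.729). By line, 1 of 3 tested factors was called higher in PK45H in each arm, and 0 were called in KP4 and PANC1.

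Cystatins, the inhibitors of cysteine cathepsins, were mostly too low: 4 of 12 inhibitor genes were tested. All 4 were called higher with M2rtTA (median 1.85) and 2 without it (median 1.05, or 1 gene without KP4 OVOL2 replicate 3 or KP4 mCherry replicate 1), but a gene that passes the filter only through OVOL2 libraries had to differ, so these counts support nothing. CSTB, a cytosolic inhibitor found in most tissues, rose by 0.60 (SE 0.14, adjusted p = 0.00076), and CST3, the main secreted one, by 0.48 (SE 0.07, adjusted p = 1.78e-06). By line with M2rtTA, CSTB passed in KP4 alone (1.04, adjusted p = 0.00293). CST6 and CST1 were untested in KP4, and CST1 in PANC1 too. Their mean changes, 3.43 (SE 0.86) and 3.10 (SE 0.82), are therefore descriptions and came mainly from PK45H. With M2rtTA, CST6 went there from 0.72 CPM with mCherry to 20.6 CPM with OVOL2. Its means went from 0.43 to 2.31 CPM in PANC1 and from 0 to 0.17 CPM in KP4. CST1 went from 0.06 to 5.41 CPM in PK45H, 0.07 to 0.21 in PANC1 and 0.06 to 0.36 in KP4. The CST6 call was lost without KP4 OVOL2 with M2rtTA replicate 1 (2.39). In the MHC class II list, whose invariant chain CTSS cleaves, 9 of 10 genes were tested and 3 were called with M2rtTA, all higher (median 0.41). Of all genes 32.9% were called, so the count itself is near the background. The 3 were HLA-DPB1 (1.403, adjusted p = 5.89e-05), HLA-DMA (1.34, adjusted p = 0.000733) and CD74, the invariant chain itself (0.61, adjusted p = 5.24e-05). None passed in more than a single line with M2rtTA. HLA-DPB1 passed in PK45H (adjusted p = 0.0037) and not in KP4 (0.257). HLA-DMA passed in KP4 (0.00183) and not in PK45H (0.0506), and both were untested in PANC1. CD74 passed in PK45H (8.18e-05) and not in KP4 (0.0891) or PANC1 (0.421). Without PANC1 OVOL2 with M2rtTA replicate 3 the count for the list was 5. Without M2rtTA it was 1, CD74 (0.47, adjusted p = 0.0029), and 0 in a single fit of all libraries.

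**Figure D5:**
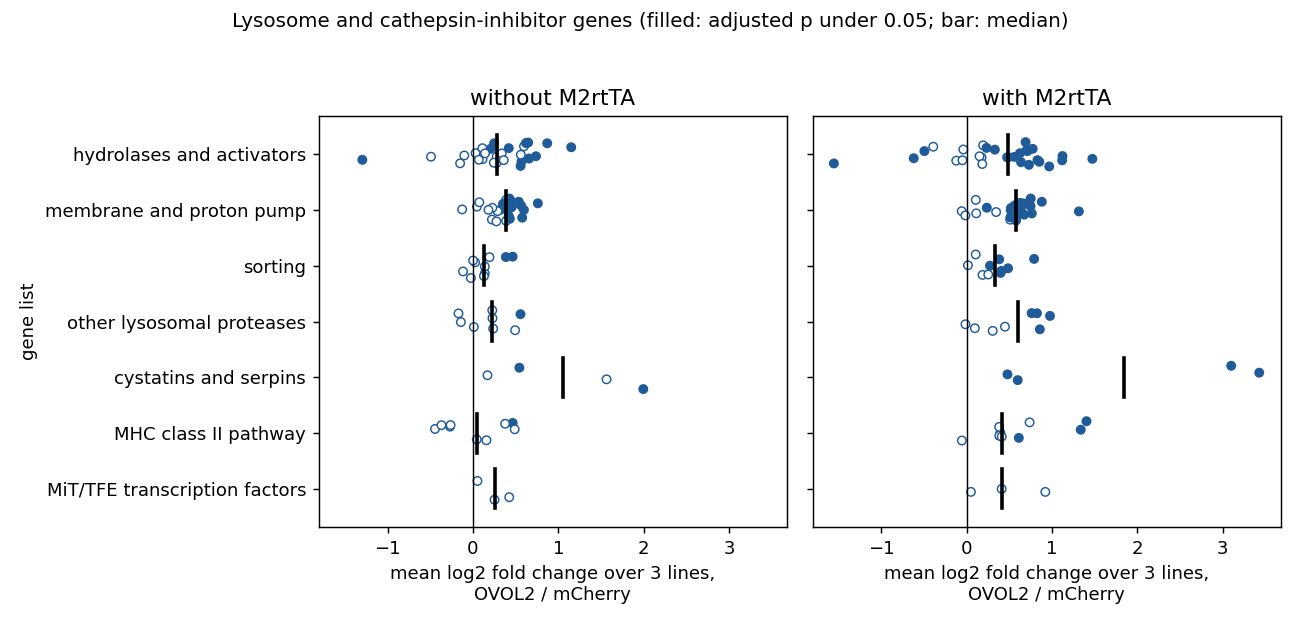
Mean log2 fold change over 3 lines of each tested gene of 7 lists, without M2rtTA (left) and with it (right), filled where the adjusted p is under 0.05, with a bar at the list median. Membrane and proton pump genes lie mostly right of 0 (median 0.39 and 0.58), and the hydrolases spread wider, with ACP2 at −1.56 on the right panel.

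Marker lists were read beside these results. The ductal epithelial markers KRT7, KRT8, KRT18, KRT19 and EPCAM had counts in all 51 libraries, and their summed level was 603 to 14180 CPM. All 5 rose in the mean over lines with M2rtTA, EPCAM by 2.26 (SE 0.11, adjusted p = 6.14e-18), KRT8 by 0.93 (adjusted p = 2.64e-06) and KRT19 by 0.60 (adjusted p = 2.57e-07), but not in each line. In PK45H all 5 were called higher and in KP4 3, whereas in PANC1 only 2 of 5 had a positive change (median −0.22), 1 was called higher and KRT19 fell (−0.56, adjusted p = 0.0197). The 6 leukocyte markers, PTPRC, CD14, CSF1R, AIF1, CD3E and MS4A1, summed to 0 to 5.38 CPM, and 0 of them passed the filter. Fibroblast markers summed to 7.24 to 67.3 CPM in the 3 transduced lines. With M2rtTA the sum was 41.9 to 51.1 CPM with OVOL2 against 12.1 to 23.6 with mCherry in KP4, 46.3 to 67.3 against 22.6 to 34.5 in PANC1 and 25.8 to 31.9 against 11.2 to 12.9 in PK45H. COL1A1 alone of the 3 tested passed (1.72, SE 0.14, adjusted p = 1.19e-11), and LUM and PDGFRB had at most 3 and 5 counts in a library. Their part in the cathepsin changes was not tested.

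The genes whose pattern was most like that of CTSV were ranked by Pearson's r over the 17 group means of log2 CPM, among 10273 genes with a mean of at least 5 CPM. PRR36 came first (r = 0.908), followed by PCGF1 (0.889), PICK1 (0.881), PADI2, a peptidylarginine deiminase (0.874), and EXOC8, an exocyst subunit (0.871). PADI2 rose from 19.4 to 241 CPM in PANC1, from 43.3 to 115 CPM in KP4 and from 12.1 to 81.9 CPM in PK45H, mCherry against OVOL2 with M2rtTA. PCGF1 and EXOC8 moved within a narrow range, PCGF1 from 6.18 to 10.1 CPM in PANC1. CTSA (r = 0.161) and CTSL (0.125, rank 4002) were the members nearest to CTSV, and CTSC (−0.661) the farthest. The group means share lines and control libraries, so these r are descriptions.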

How the data were processed

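The data were PLATE-seq libraries of 5 PDA cell lines. The values deposited by the authors were whole-number counts per gene symbol, without normalisation. Per the submitters' processing notes, kallisto 0.44.0 and GRCh38 were used. The annotation, the handling of molecular identifiers and whether counting used strand are not given in the sources used here, so counts may include amplification copies, and kallisto's estimates would have been rounded before deposit. Columns were matched to samples by the labels' descriptions, and groups came from titles and treatments.

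All tests used edgeR 4.0.16 in R 4.3.3, with filterByExpr, TMM scaling and the two-sided quasi-likelihood test, and Benjamini-Hochberg adjustment over all genes. The libraries of each line shared one fit, the 3 transduced lines together another (for their mean and its differences), and the untreated lines a further one. SEs were derived from the test statistic. The scripts were tested on simulated data. CPM used TMM factors over all 51 libraries. Precision follows the counts, whose totals the report gives.

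The members and gene lists were chosen with earlier results of these data known. CTSV was tested only among untreated lines, since the OVOL2 and mCherry libraries entered its choice. Named are the 10 members and OVOL2, of each list up to 3 called genes with the largest mean change with M2rtTA, and the 5 genes most correlated with CTSV; a few further list genes, CTSF, CST3, TFEB, MITF, TFE3, LUM and PDGFRB among them, were named after their values were seen. Other settings tried were DESeq2 1.42.0 (not for the tests with several degrees of freedom), RLE scaling, either no filter or one on a mean count of at least 10, fits of all libraries or of just the groups compared, a replicate block, and each library left out. Promoters were matched by symbol to the RefSeq table for 7 of the 10 members, and the first entry of each symbol was used.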

Additional observations from a re-analysis of the deposited data

Results flagged for a closer look

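The OVOL2 effect on CTSL differed between KP4, PANC1 and PK45H by the test of the difference itself, with M2rtTA (adjusted p = 0.00578) and without it (adjusted p = 0.00157): the log2 changes were 0.13, −1.13 and −0.81 with M2rtTA, and 0.47, −0.29 and −1.12 without it. The OVOL2 effect on CTSS differed between the lines with M2rtTA (adjusted p = 0.0442), with −0.79 in KP4, 0.77 in PANC1 and 0.08 in PK45H. That CTSS call was lost in 16 of the 18 fits that left out 1 library, and under RLE scaling, with no filter, with the replicate block and in 1 fit of all libraries (adjusted p from 0.0502 to 0.13 where lost).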

How the results depend on the processing

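The number of the 9 members other than CTSV that were called moved by over 1.5 times in these cases. In KP4 with M2rtTA it was 4 instead of 2 in 1 fit of all libraries. In KP4 without M2rtTA it was 1 with no filter, and 0 to 1 with a library left out. PK45H without M2rtTA gave 2 to 4 with a library left out. The mean over lines without M2rtTA gave 3 to 5, the 5 being without PANC1 mCherry replicate 2. The difference between lines with M2rtTA was called for 1 member instead of 2 under RLE scaling, with no filter, with the replicate block and in 1 fit of all libraries, and for 1 to 2 with a library left out. Without M2rtTA it was called for 2 instead of 1 with a mean count of at least 10. For M2rtTA without OVOL2 in PK45H, DESeq2 called 1 member instead of 0. The cause was not tested.

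Changes near 0 turned their sign. CTSB in PANC1 with M2rtTA was 0.002 with RLE scaling, 0.004 in DESeq2 and 0.003 with the replicate block, and CTSV in PK45H, mCherry against untreated, was −0.01 with no filter. With a library left out, the log2 change ran for CTSB from −0.054 to 0.174 (KP4 with M2rtTA), −0.005 to 0.13 (KP4 without) and −0.098 to 0.091 (PANC1 with). CTSL ran from −0.006 to 0.293 in KP4 with M2rtTA, and for mCherry against untreated from −0.136 to 0.092 (KP4), −0.127 to 0.212 (PANC1) and −0.198 to 0.062 (PK45H). For M2rtTA without OVOL2, CTSL in PK45H ran from −0.226 to 0.038, CTSV in KP4 from −0.006 to 0.225 and CTSV in PK45H from −0.261 to 0.299. CTSV in PK45H, mCherry against untreated, ran from −0.211 to 0.259, and in HPAFII and PATU8988S against the other lines from −0.347 to 0.058. CTSH without M2rtTA ran from −0.003 to 0.539 in KP4 and −0.153 to 0.098 in PANC1. CTSS with M2rtTA ran from −0.03 to 0.153 in PK45H and −0.055 to 0.126 in the mean over lines, where CTSZ ran from −0.185 to 0.042. The M2rtTA change of CTSK ran from −0.684 to 0.701.

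The shift of the CTSV to CTSL ratio with M2rtTA stayed within 2.80 to 3.13 (KP4), 5.58 to 5.97 (PANC1) and 1.73 to 2.27 (PK45H) with a library left out. Same-numbered libraries did not deviate together (r from −0.172 to 0.162 in 18 pairs, over 0.1 in 1). No pairing by number was therefore seen, though a low r cannot exclude one, and the replicate block is given only here. DESeq2 was not run for tests with several degrees of freedom. Depth limits CTSZ and CTSK most.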
